A study of Mus musculus with 12 samples.

Results

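The changes described here are those that 2 Etv4 knockout clones of the mouse mammary carcinoma line 4T1 had in common when grown on plastic. Members were chosen by comparing each clone with the control cells in 2D culture and keeping the genes that passed an adjusted p of 0.05 in the same direction in both clones. Of 13763 genes tested, 1081 were higher in both clones and 939 were lower in both, which makes 2020 genes in all. The comparison rested on 6 of the 12 libraries of the series: 2 of control cells, 2 of clone 1 and 2 of clone 2, and the labels name no drug or ligand for any of them. 4T1 is an established line from a spontaneous BALB/c mammary tumour that metastasises in syngeneic mice. Control cells were pools of clones that had been nucleofected with control guide RNAs, whereas each knockout group was a single clone that had been nucleofected with a guide RNA against Etv4. A difference between 1 clone and a pool of clones therefore cannot be told apart from the selection of that clone, and asking for the same change in both clones lessens this without removing it. The other 6 libraries were the same 3 cell populations embedded in type I collagen gels, called 3D below, and they entered the same fit, where they add to the estimate of spread and to the filter on low counts. The labels did not say whether the 2 libraries of a group came from separate cultures, so p-values measure the spread between libraries, which may be technical. Because both clones were set against the same 2 control libraries, an error in those libraries moves both differences together.

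Etv4 belongs, with Etv1 and Etv5, to the PEA3 group of ETS transcription factors, which bind DNA around a GGAA core. In mammary epithelium and in breast carcinoma these factors act downstream of receptor tyrosine kinase and ERK signalling, and they are known for driving matrix proteases, branching and migration. Loss of 1 member can leave the other members of the group in place.

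The promoters of 4 members are printed because the knocked-out protein is a DNA-binding factor and these genes were among those that moved most in both clones. They are the first 2 lower genes and the first 2 higher genes, in the order of the smaller of the 2 clones' changes, with a RefSeq entry and no annotated exon inside the window. Each run is the 250 bases before the RefSeq start, 5′ to 3′ on the gene's own strand, from build GRCm38.p6. Capitals would mark a match to CCGGAAGT, AGGAAGT or TGANTCA on either strand, and none of the 4 windows held one.
Slco4a1, chr2:180455995-180456244, plus strand: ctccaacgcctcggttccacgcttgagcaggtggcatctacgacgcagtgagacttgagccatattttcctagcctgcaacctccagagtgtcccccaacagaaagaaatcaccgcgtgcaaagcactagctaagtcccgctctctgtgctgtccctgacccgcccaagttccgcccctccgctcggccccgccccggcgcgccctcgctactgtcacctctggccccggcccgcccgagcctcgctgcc
C3, chr17:57228137-57228386, minus strand: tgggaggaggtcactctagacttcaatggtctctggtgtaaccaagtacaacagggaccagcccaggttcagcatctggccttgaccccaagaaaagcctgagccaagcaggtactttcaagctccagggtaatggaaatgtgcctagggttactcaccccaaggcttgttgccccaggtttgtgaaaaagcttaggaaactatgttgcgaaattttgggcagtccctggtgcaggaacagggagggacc
Slc22a29, chr19:8218901-8219150, minus strand: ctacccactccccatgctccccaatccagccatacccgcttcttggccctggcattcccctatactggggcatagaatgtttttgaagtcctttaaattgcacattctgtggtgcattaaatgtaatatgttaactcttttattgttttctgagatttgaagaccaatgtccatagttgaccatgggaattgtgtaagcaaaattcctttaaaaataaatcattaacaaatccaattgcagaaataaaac
Cadm4, chr7:24481773-24482022, plus strand: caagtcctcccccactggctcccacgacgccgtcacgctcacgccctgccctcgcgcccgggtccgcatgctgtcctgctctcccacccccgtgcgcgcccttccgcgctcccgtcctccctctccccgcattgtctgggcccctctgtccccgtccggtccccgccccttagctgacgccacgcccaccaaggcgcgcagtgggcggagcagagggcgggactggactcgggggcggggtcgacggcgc

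CCGGAAGT is a strong ETS site, AGGAAGT a shorter ETS site and TGANTCA an AP-1 site, and the first of these does not contain the second. Over the 850 higher members with a promoter, 49 (5.76%) held CCGGAAGT, against 24 of 740 (3.24%) lower members and 624 of 10142 (6.15%) tested genes. AGGAAGT was in 43 (5.06%) of the higher members, in 56 (7.57%) of the lower members and in 724 (7.14%) of all tested genes with a promoter. TGANTCA was in 33 (3.88%) of the higher and 24 (3.24%) of the lower members, and in 457 (4.51%) of all. Among the 24 genes that changed most under the naming rule given below, 16 had a promoter entry, and AGGAAGT occurred once each before Ulbp1, Spn and Mal, and TGANTCA once before Cp. These letters describe a short window and carry no information on binding.

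The 2D libraries held 12277023 to 18702650 counts over genes and the 3D libraries 26525130 to 33210413. Between 13459 and 13875 genes had at least 1 count in a 2D library. Epithelial markers summed to between 4466 and 5678 CPM (counts scaled to a common library size) in every 2D library, with Krt5 at 0, and the order was clone 1 (4466 to 4529), control (5204 to 5240) and clone 2 (5630 to 5678). Of the markers of other cell types, 11 of 24 leukocyte, 7 of 15 fibroblast and 7 of 15 endothelial genes were at 0 in all 6 libraries. Cd4, Itgam, Dcn and Kdr were among them. Fibroblast markers summed to 169 to 187 CPM in control, 217 to 235 CPM in clone 1 and 121 to 133 CPM in clone 2. Endothelial markers summed to 53.5 to 53.6 CPM in control, 51.5 to 54.6 CPM in clone 1 and 40.3 to 44.9 CPM in clone 2. Leukocyte markers summed to 8.79 to 9.39 CPM in control, 1.73 to 4.07 CPM in clone 1 and 3.20 to 3.85 CPM in clone 2.

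Etv4 RNA was lower in all 4 knockout libraries in 2D but was still present. Its level (chr11:101769742-101785371, mm10) was 78.1 and 76 CPM in the control pool, 49.8 and 49.2 in clone 1, 49.3 and 46 in clone 2. The knockout libraries lay close together and below both controls, with a log2 fold change and standard error of -0.64 ± 0.07 in clone 1 and -0.69 ± 0.07 in clone 2. The adjusted p was 4.3e-08 and 2.2e-08 by edgeR's quasi-likelihood test, as for all adjusted p here. In what follows paired log2 changes give clone 1 first and clone 2 second. Small insertions and deletions made by Cas9 need not remove a transcript, and where the guide cuts is not given in the sources used here, so the level checks the label only in part. Relative to the median of its chromosome, 11, the change was -0.26 in clone 1 (adjusted p = 0.0055) and -0.60 in clone 2. In 3D it was -0.48 ± 0.06 in clone 1 and -0.12 ± 0.06 in clone 2, and the latter did not pass (adjusted p = 0.12). Etv1 was higher in both clones in 2D, at 23.7 and 21.3 CPM in the control pool, 32.6 and 31.7 in clone 1, 31.6 and 32.3 in clone 2, which is a log2 change of 0.52 ± 0.09 and 0.50 ± 0.09. Relative to the median of its chromosome, 12, the Etv1 change was 0.33 in each clone (adjusted p = 0.005 and 0.0052). The Etv1 change in 3D was 0.02 ± 0.06 (adjusted p = 0.8) and 0.16 ± 0.06 (adjusted p = 0.046). Etv5 was not shared: it was lower in clone 1 (-0.71 ± 0.08) and differed from control by 0.02 ± 0.08 in clone 2 (adjusted p = 0.88), and the clones differed from each other (adjusted p = 9.8e-08). The PEA3 group thus had 1 member higher in both, 1 lower in both and 1 lower in a single clone.

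Most shared changes were small. In clone 1, 5471 genes (39.8%) passed the threshold in 2D, 19.8% of those tested being higher and 20% lower. In clone 2, 4661 genes (33.9%) passed, 18.9% higher and 15% lower. The 1081 genes higher in both were 7.85% of those tested and the 939 lower in both were 6.82%, while 500 genes (3.63%) passed in opposite directions in the 2 clones. The median log2 change of the higher members was 0.41 in clone 1 and 0.38 in clone 2, and that of the lower members was -0.59 and -0.49, beside medians of 0 and 0.02 over all genes tested. In 928 of the higher and 610 of the lower members the change was under 1.5-fold in at least 1 clone. Both clones changed at least 2-fold in 61 higher genes (0.443% of those tested) and 201 lower genes (1.46%). Few reads stood behind many of these: 21 of the 61 and 73 of the 201 had a group with 3 counts or fewer, and 17 and 46 reached 5 CPM in some group. At the edge of the rule, Prkrip1 was just inside (log2 0.25 and 0.27, adjusted p = 0.0499 and 0.0374) and Rpl13a just outside (0.18 and 0.23, adjusted p = 0.0501 and 0.0149).

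A change in the same direction was not a change of the same size. The clones differed from each other in 352 (32.6%) of the higher members, with the larger change in clone 1 for 231 and in clone 2 for 121. Among the lower members 336 (35.8%) differed, 235 with the larger change in clone 1 and 101 in clone 2. Over all genes tested the clones differed from each other in 41.6%. Genes that passed in opposite directions were left out by the rule that chose the members, so the shares cannot be weighed against that background. Without the first clone 2 library the number that differed, in both directions together, was 458 instead of 688. Members were also more abundant than other genes, with a median of 69.7 CPM for the higher and 32.4 CPM for the lower, against 21.5 CPM for all. With genes put in 4 equal bins by level, the share called higher in both was 1.08%, 5.14%, 9.07% and 16.1% from the lowest bin to the highest. The share called lower in both was 4.42%, 6.97%, 7.35% and 8.54%. The upper 2 bins began at 21.5 and 66.5 CPM, and beside each share of a described gene list below, the word bin gives the same share over all genes in the bin of the list's median level. When only the 2D libraries were fitted, 650 genes were higher and 685 lower in both.

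**Figure D1:**
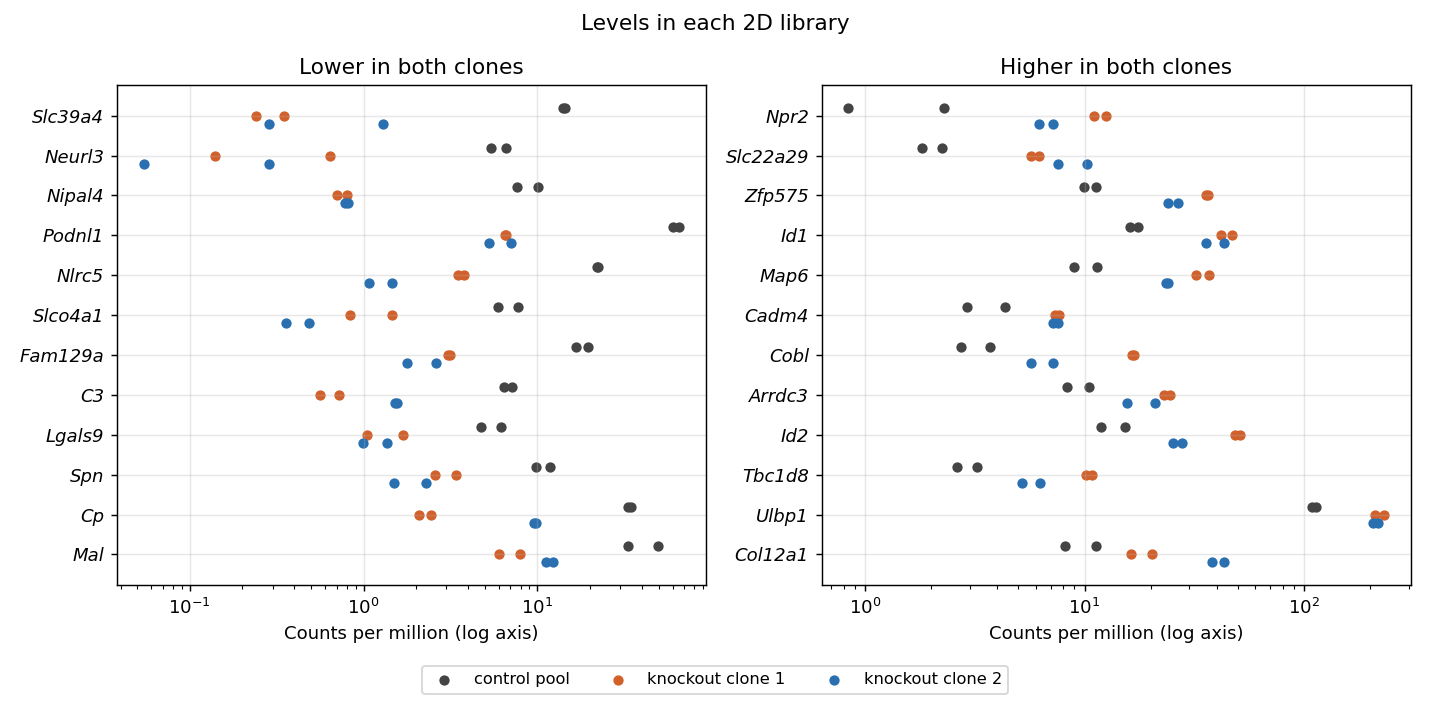
CPM on a log axis in each of the 6 libraries grown in 2D. Shown are the 12 genes that fell and the 12 that rose most in both clones among those that met the naming rule. That rule includes a minimum of 5 CPM and a limit on exon overlap. Each point is 1 library. The rule that chose the genes required the 4 knockout libraries to lie on one side of both control libraries.

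Transporters, immune genes and secreted proteins stood among the 12 genes with the deepest shared fall under the naming rule. Slc39a4 (chr15:76612383-76617384), the intestinal zinc importer ZIP4, was at 14.5 and 14.1 CPM in the control pool, 0.349 and 0.241 in clone 1, 1.3 and 0.284 in clone 2. All 4 knockout libraries lay far below control, and the log2 change was -5.55 ± 0.36 and -4.05 ± 0.28 (adjusted p = 5.0e-12 and 4.8e-11). Podnl1 (chr8:84125989-84132527), a secreted leucine-rich repeat proteoglycan, had the highest control level of the 12, at 65.3 and 60.2 CPM in the control pool, 6.5 and 6.59 in clone 1, 7.05 and 5.26 in clone 2. Its change was nearly the same size in both clones, -3.26 ± 0.14 and -3.33 ± 0.14 (adjusted p = 1.6e-15 and 2.6e-15), and the 95% interval of the difference between them was -0.45 to 0.32. Neurl3 (chr1:36264597-36274679), a ubiquitin ligase induced by inflammation, was at 6.64 and 5.4 CPM in the control pool, 0.14 and 0.643 in clone 1, 0.0542 and 0.284 in clone 2, with a change of -3.99 ± 0.36 and -5.23 ± 0.40. Nipal4 (chr11:46148155-46166508), a magnesium transporter of epidermis, was at 10.1 and 7.62 CPM in the control pool, 0.699 and 0.803 in clone 1, 0.814 and 0.782 in clone 2, with a change of -3.56 ± 0.30 and -3.46 ± 0.28. Both stayed under 1 CPM in every knockout library.

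Nlrc5 (chr8:94434356-94527272), the transactivator of MHC class I genes, was at 22.1 and 22.3 CPM in the control pool, 3.49 and 3.78 in clone 1, 1.46 and 1.07 in clone 2. It fell in both clones but further in clone 2, by a log2 change of -2.61 ± 0.17 and -4.10 ± 0.19 (adjusted p of the difference 6.9e-05). Cp (chr3:19957054-20009145), the copper ferroxidase ceruloplasmin, fell further in clone 1, at 33.2 and 34.7 CPM in the control pool, 2.45 and 2.09 in clone 1, 9.6 and 9.81 in clone 2 and -3.89 ± 0.14 and -1.81 ± 0.10 (adjusted p of the difference 2.8e-10). C3 (chr17:57203970-57228136), the central complement component, was at 7.13 and 6.41 CPM in the control pool, 0.559 and 0.723 in clone 1, 1.52 and 1.56 in clone 2, a change of -3.40 ± 0.26 and -2.13 ± 0.20. Mal (chr2:127633226-127656695), a proteolipid of apical membrane transport, was at 49.5 and 33.1 CPM in the control pool, 7.97 and 6.03 in clone 1, 12.3 and 11.2 in clone 2, a change of -2.55 ± 0.16 and -1.81 ± 0.15. The rule that chose these genes required that no knockout library overlap the controls. Slco4a1 (chr2:180456245-180474867), an organic anion transporter whose promoter is printed above, changed by -2.60 ± 0.30 and -3.97 ± 0.35. Fam129a (chr1:151571186-151721939), a stress-response gene also called Niban, changed by -2.55 ± 0.19 and -3.02 ± 0.20. Lgals9 (chr11:78962974-78984946), which encodes galectin-9, changed by -1.98 ± 0.29 and -2.18 ± 0.28, and Spn (chr7:127132232-127137823), the sialomucin CD43, by -1.84 ± 0.23 and -2.49 ± 0.24.

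Among the 12 genes that rose most under the naming rule were 2 Id genes, the guanylyl cyclase Npr2 and several cytoskeletal and adhesion genes. Npr2 (chr4:43631935-43651244), the receptor for C-type natriuretic peptide, was at 0.839 and 2.29 CPM in the control pool, 12.5 and 11 in clone 1, 7.16 and 6.19 in clone 2. It rose by a log2 change of 2.90 ± 0.25 and 2.09 ± 0.26 (adjusted p = 7.5e-10 and 1.0e-06), with the 2 control libraries themselves apart. Id1 (chr2:152736251-152737410) and Id2 encode inhibitors of basic helix-loop-helix factors that BMP signalling is known to induce. Id1 was at 16.1 and 17.5 CPM in the control pool, 42 and 47.2 in clone 1, 35.6 and 43 in clone 2, a change of 1.40 ± 0.12 and 1.22 ± 0.11 (adjusted p = 3.9e-10 and 1.1e-08). Id2 (chr12:25093799-25097140) was at 15.3 and 11.9 CPM in the control pool, 51 and 48.4 in clone 1, 25.4 and 27.9 in clone 2, with a larger rise in clone 1, 1.87 ± 0.10 and 0.97 ± 0.11 (adjusted p of the difference 1.4e-08). The clones' Id1 levels overlapped each other, whereas their Id2 levels did not. Ulbp1 (chr10:7440362-7473638), a ligand of the natural killer receptor NKG2D, had the highest level of the 12, at 109 and 114 CPM in the control pool, 231 and 210 in clone 1, 206 and 218 in clone 2. Its rise was alike in both clones, 0.98 ± 0.06 and 0.92 ± 0.06, with a 95% interval of the difference of -0.17 to 0.06.

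Arrdc3 (chr13:80883384-80896042), an arrestin-domain adaptor for receptor endocytosis, was at 10.5 and 8.3 CPM in the control pool, 24.5 and 23.1 in clone 1, 20.9 and 15.6 in clone 2, a change of 1.34 ± 0.13 and 0.98 ± 0.13. Col12a1 (chr9:79598991-79718831), a fibril-associated collagen, was at 8.18 and 11.3 CPM in the control pool, 20.4 and 16.3 in clone 1, 38.2 and 43.4 in clone 2, with the larger rise in clone 2, 0.92 ± 0.16 and 2.06 ± 0.15 (adjusted p of the difference 2.1e-07). Cobl (chr11:12236608-12464960), an actin nucleator, had its larger rise in clone 1, 2.36 ± 0.18 and 0.98 ± 0.20. Map6 (chr7:99267447-99337137), which stabilises microtubules, changed by 1.76 ± 0.12 and 1.22 ± 0.13, and the adhesion molecule Cadm4 (chr7:24482023-24504539) by 1.06 ± 0.21 and 1.04 ± 0.20. The zinc-finger gene Zfp575 (chr7:24583838-24587641) changed by 1.76 ± 0.13 and 1.24 ± 0.13 and the RAB GTPase-activating gene Tbc1d8 (chr1:39371492-39478755) by 1.84 ± 0.18 and 0.96 ± 0.20. Slc22a29 (chr19:8160165-8218900) changed by 1.56 ± 0.24 and 2.15 ± 0.22, but it lies in a cluster of similar transporter genes between which the counting could split reads. None of these 24 genes lost its shared call under any of the 20 alternatives in which it was tested.

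Beyond these single genes, 64 gene lists were counted by function, 4 of which had fewer than 8 genes tested and were not described. A list was described when at least 4 members were shared in 1 direction at 1.5 times or more the share over all genes. By this rule 21 lists were described as higher, 20 as lower and 6 of these both ways, while 29 were neither. The rule did not take abundance into account, and the share was under 1.5 times that of the list's bin for 7 of the lists described as higher and 3 of those described as lower. The higher ones were matrix glycoproteins, YAP targets, the cytosolic ribosome, fatty acid synthesis, Golgi transport, DNA replication and cell cycle inhibitors, and the lower ones hypoxia and glycolysis, DNA replication and splicing. The counts are descriptions, and no test was run on a list.

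**Figure D2:**
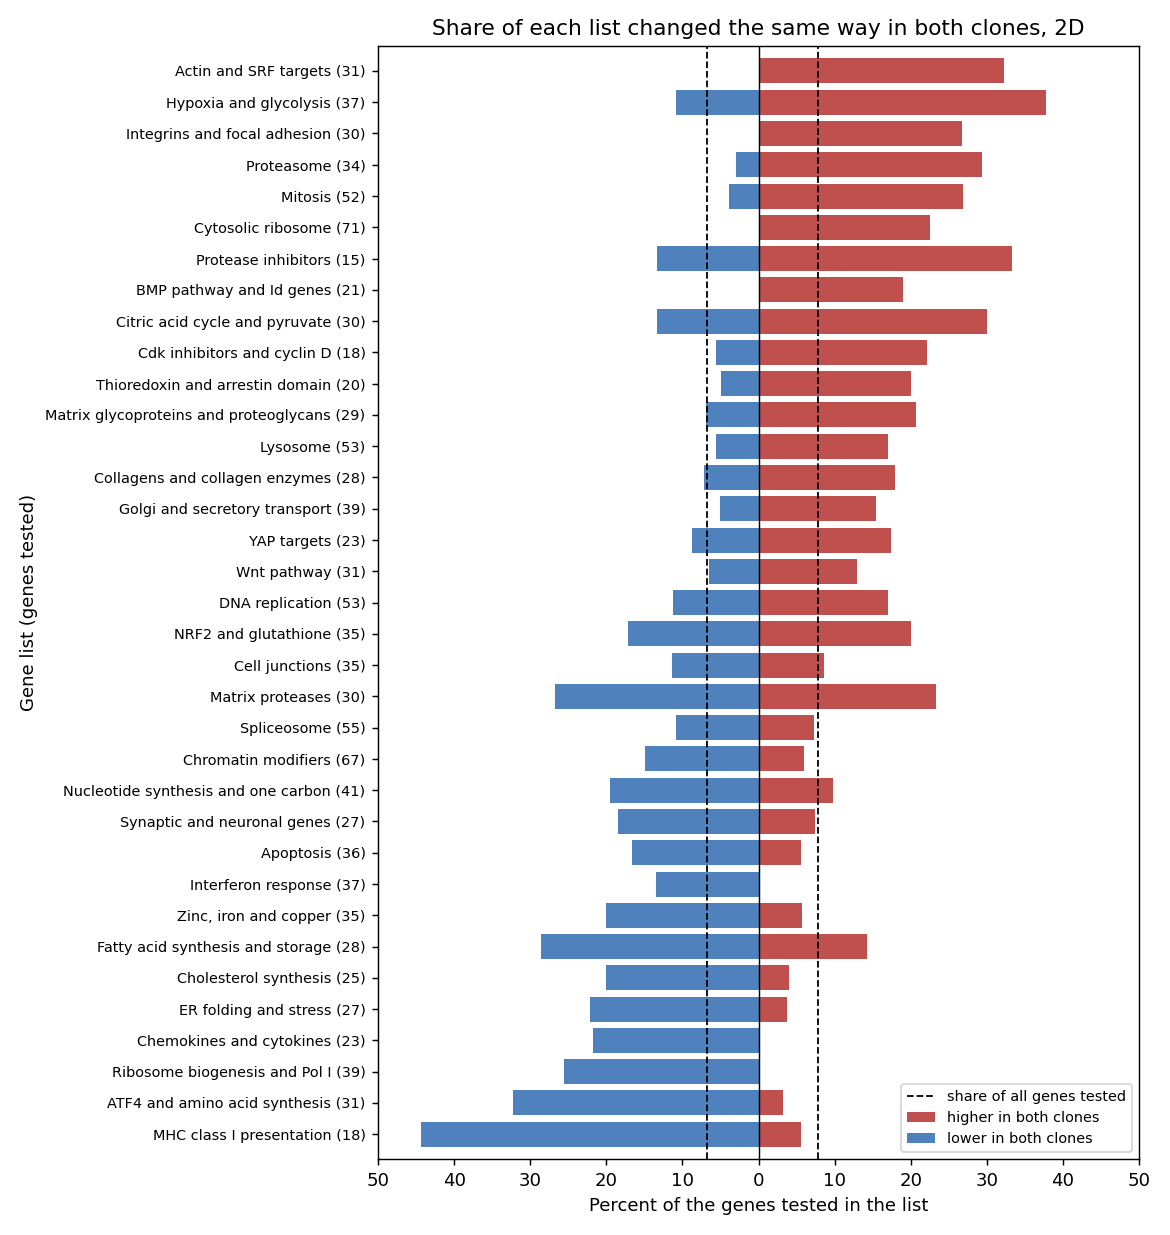
Percent of the tested genes of each described list that were higher (right) or lower (left) in both clones in 2D, with the number tested in brackets. Dashed lines give the share over all genes tested, 7.85% higher and 6.82% lower; MHC class I presentation reaches furthest left at 44.4% and hypoxia and glycolysis furthest right at 37.8%.

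Many genes of antigen presentation and some of inflammation were lower. Of the MHC class I presentation list 8 of 18 (44.4%, bin 7.35%) were lower in both clones, and the list's median change was -0.41 in clone 1 and -0.46 in clone 2. They comprised the chains H2-K1, H2-D1, H2-Q4 and B2m, the peptide transporter gene Tap2, the immunoproteasome genes Psmb8 and Psmb10, and Nlrc5; the chaperone Pdia3 was higher. Psmb8 was at 23.6 and 20.5 CPM in the control pool, 3.84 and 3.29 in clone 1, 11 and 9.32 in clone 2, lower by far in clone 1, with a change of -2.62 ± 0.21 and -1.11 ± 0.17. Tap2 changed by -1.12 ± 0.17 and -0.61 ± 0.15. The class I chains are near-identical copies of one another, and 14.7% of Psmb8 and 18.5% of Tap2 exon length overlaps another gene, so these values are uncertain where reads could be split. The set of genes without overlap held 4 of the 8, and 3 of those 4 were called in it. Interferon response genes were lower in 5 of 37 (13.5%, bin 6.97%), with Oas1a at -2.24 ± 0.43 and -2.68 ± 0.44, and chemokine and cytokine genes in 5 of 23 (21.7%, bin 4.42%), with the neutrophil chemokine Cxcl3 at -1.78 ± 0.31 and -2.36 ± 0.32. No member of these 2 lists was higher in both clones (bin 5.14% for the interferon list and 1.08% for the chemokine list). Cd74 and Coro1a, of the leukocyte list, were also lower in both, and the summed leukocyte markers moved the same way as these groups, from 8.79 to 9.39 CPM in control to at most 4.07 CPM in a clone; their part in these results was not tested. In bulk cultures fewer cells of a type and less RNA per cell cannot be told apart.

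Genes that carry zinc, iron and copper were lower in 7 of 35 (20%, bin 7.35%). Besides Slc39a4 and Cp these included a second zinc importer, Slc39a8, whose 42 counts in control were matched by 0 in each clone. With a floor of 3 counts over the group it was at least 12.9-fold lower in clone 1 and, in clone 2, at least 15.6-fold lower. The metallothionein Mt1, the metal reductases Steap1 and Steap3 and the iron exporter Slc40a1 were the remaining lower members. The ferritin genes went the other way: Fth1 changed by 0.68 ± 0.06 and 0.51 ± 0.06 and Ftl1 by 0.56 ± 0.05 and 0.66 ± 0.05, although 34.6% of Ftl1 exon length overlaps another gene and ferritin genes have processed copies. The list of NRF2 targets and glutathione genes, which holds both ferritins, was split, with 7 of 35 (20%, bin 9.07%) higher and 6 of 35 (17.1%, bin 7.35%) lower. The list's median level, 65.4 CPM, lay just under the highest bin, where 16.1% of genes were higher and 8.54% lower. Its share of higher members was thus under 1.5 times that of the highest bin. The lower members of the list included the glutathione transferases Mgst1 (-3.38 ± 0.52 and -3.47 ± 0.49) and Gstm2 and the cystine importer Slc7a11.

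Part of the amino acid and one-carbon lists was lower. Of the ATF4 and amino acid list 10 of 31 (32.3%, bin 7.35%) were lower, and 9 of the 10 kept the call with each chromosome centred on its own median. Slc7a11 was at 6.5 and 7.22 CPM in the control pool, 2.31 and 3.46 in clone 1, 2.28 and 3.06 in clone 2, a change of -1.27 ± 0.22 and -1.38 ± 0.21. Stc2, a secreted glycoprotein of the stress response, changed by -4.93 ± 0.61 and -2.84 ± 0.44 and the transcription factor gene Cebpb by -0.94 ± 0.11 and -0.76 ± 0.10, with 20.7% of Cebpb exon length under another gene. All 4 knockout libraries lay below control for each of the 3. The serine hydroxymethyltransferases Shmt1 (-0.84 ± 0.07 and -0.38 ± 0.06) and Shmt2 and the folate enzyme Mthfd2 were shared with the nucleotide synthesis list, which was lower in 8 of 41 (19.5%, bin 8.54%) and included the purine enzyme Pfas (-0.61 ± 0.05 and -0.42 ± 0.05). That nucleotide list was less firm, with 4 of the 8 keeping the call once chromosomes were centred. Of the ER folding list 6 of 27 (22.2%, bin 8.54%) were lower, for instance Sdf2l1 (-1.05 ± 0.18 and -0.70 ± 0.17), and 2 of the 6 kept the call with chromosomes centred. The tRNA synthetases, known as another ATF4 target group, had 1 of 20 higher (5%, bin 16.1%) and 1 of 20 lower (5%, bin 8.54%).

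Lipid synthesis genes were lower in part. Of the fatty acid synthesis and storage list 8 of 28 (28.6%, bin 8.54%) were lower and 4 of 28 (14.3%, bin 16.1%) higher. The lower members included the master regulator gene Srebf1, at 188 and 174 CPM in the control pool, 122 and 118 in clone 1, 145 and 133 in clone 2 and -0.60 ± 0.06 and -0.38 ± 0.06, with Fasn, Acly and Scd1, which make fatty acids, and the malic enzyme gene Me1 (-0.44 ± 0.10 and -0.46 ± 0.10). Lpin2, of triglyceride synthesis, was higher (0.49 ± 0.06 and 0.30 ± 0.06). Of this list 5 of the 8 lower and 1 of the 4 higher members kept the call with chromosomes centred. In the cholesterol list 5 of 25 (20%, bin 8.54%) were lower, Hsd17b7 by -0.43 ± 0.06 and -0.76 ± 0.06, and 1 higher (4%, bin 16.1%). Of those 5 lower genes, 3 kept the call once chromosomes were centred. Fatty acid oxidation and peroxisome genes had 3 of 34 higher (8.82%, bin 9.07%) and none lower (bin 7.35%).

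Glycolysis and hypoxia genes formed the list with the highest share of higher members, 14 of 37 (37.8%, bin 9.07%). Its median level, 64.4 CPM, lay just under the highest bin, where 16.1% of genes were higher. The higher members covered the pathway from Pfkl, Aldoa and Tpi1 through Pgk1, Pgam1 and Eno1 to Ldha, with the hypoxia targets Bnip3, Egln1, Ero1l, Higd1a, Ndrg1, P4ha1 and Pdk1. Pgk1, phosphoglycerate kinase, was at 597 and 565 CPM in the control pool, 881 and 828 in clone 1, 797 and 822 in clone 2, a change of 0.56 ± 0.05 and 0.48 ± 0.05. Aldoa changed by 0.71 ± 0.05 and 0.44 ± 0.05 and Bnip3, a mitophagy receptor with 22.3% of its exon length under another gene, by 0.72 ± 0.10 and 0.83 ± 0.09. Pdk1, which restrains pyruvate dehydrogenase, was at 49.5 and 53.9 CPM in the control pool, 135 and 126 in clone 1, 77.6 and 86.3 in clone 2, with the larger rise in clone 1, 1.33 ± 0.07 and 0.66 ± 0.07. In each of these 4 the knockout libraries lay above both controls, and 12 of the 14 kept the call with chromosomes centred. The list was not uniform, since 4 of 37 (10.8%, bin 7.35%) were lower, Aldoc by -2.41 ± 0.23 and -1.39 ± 0.19. Several glycolytic genes have processed copies in the genome, so small shifts in their counts are uncertain. Citric acid cycle and pyruvate genes were higher in 9 of 30 (30%, bin 16.1%), Idh2 by 0.52 ± 0.06 and 0.54 ± 0.06, and lower in 4 of 30 (13.3%, bin 8.54%). Of these citric acid cycle and pyruvate genes, 6 of the 9 higher and 1 of the 4 lower kept the call with chromosomes centred. Txnip, an inhibitor of thioredoxin and of glucose uptake, was at 4.89 and 4.72 CPM in the control pool, 14.7 and 19.4 in clone 1, 17.9 and 22 in clone 2, a change of 1.81 ± 0.16 and 2.04 ± 0.15, with 19.4% of its exon length under another gene.

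Matrix proteases went both ways. Of that list 7 of 30 (23.3%, bin 9.07%) were higher and 8 of 30 (26.7%, bin 7.35%) lower. The call held with chromosomes centred for 4 of the 7 and 6 of the 8. The stromelysin gene Mmp3 was at 39.3 and 40.5 CPM in the control pool, 11 and 12.5 in clone 1, 6.83 and 5.33 in clone 2, a change of -1.76 ± 0.11 and -2.69 ± 0.12, and Mmp10, a second stromelysin gene, changed by -2.82 ± 0.26 and -1.61 ± 0.21. Mmp11, also called a stromelysin, went the other way, by 1.33 ± 0.14 and 0.64 ± 0.15. Mmp9, the plasminogen activators Plau and Plat, Adamts4 and Adamts10 were the other lower members besides Mmp13. The procollagen proteinase gene Bmp1 rose, at 278 and 267 CPM in the control pool, 348 and 381 in clone 1, 410 and 403 in clone 2 and 0.42 ± 0.05 and 0.58 ± 0.05, as did the serine protease gene Htra1 (0.86 ± 0.05 and 0.41 ± 0.05), Mmp14, Adam9, Adam12 and Ctsb. Protease inhibitors were higher in 5 of 15 (33.3%, bin 5.14%) and lower in 2 (13.3%, bin 6.97%). Among the higher ones, the cystatin gene Cst6 was at 7.97 and 7.69 CPM in the control pool, 18.9 and 17.7 in clone 1, 12.9 and 14.1 in clone 2, a change of 1.22 ± 0.14 and 0.78 ± 0.14. The fibroblast markers in the same libraries summed to 169 to 187 CPM in control, 217 to 235 CPM in clone 1 and 121 to 133 CPM in clone 2, so they moved in opposite directions in the 2 clones.

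Matrix glycoproteins were higher in 6 of 29 (20.7%, bin 16.1%) and collagens with their enzymes in 5 of 28 (17.9%, bin 9.07%). The call held with chromosomes centred for 3 of the 6 and 4 of the 5. Fbln2, a basement membrane fibulin, was at 525 and 554 CPM in the control pool, 876 and 926 in clone 1, 979 and 994 in clone 2, a change of 0.74 ± 0.05 and 0.87 ± 0.05, and Efemp2, a fibulin of elastic fibres, changed by 1.0 ± 0.07 and 0.50 ± 0.07. The laminin genes Lama3 and Lamb1 were also higher. Col27a1 changed by 4.01 ± 0.58 and 3.44 ± 0.61, at 0.489 and 0 CPM in the control pool, 4.26 and 3.62 in clone 1, 2.77 and 2.56 in clone 2. The list medians of both groups were above 0 in clone 1 and below 0 in clone 2, so the lists as a whole did not move one way.

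The adhesion and actin genes that passed were all higher, though 1 of each list was lower under another scaling. Integrin and focal adhesion genes were higher in 8 of 30 (26.7%, bin 16.1%), and none was lower (bin 8.54%). They included Itgb1, the focal adhesion kinase gene Ptk2, Tln1, Vcl and Pxn; Zyx changed by 0.50 ± 0.07 and 0.61 ± 0.07 and Lims1 by 0.44 ± 0.06 and 0.47 ± 0.06. Ilk was among them, but 89.7% of its exon length lies under another gene. Of the actin and SRF target list 10 of 31 (32.3%, bin 16.1%) were higher and none lower (bin 8.54%), with a median change of 0.14 in clone 1 and 0.18 in clone 2. Of those 10 actin genes, 6 kept the call with chromosomes centred. Msn, the membrane-actin linker moesin, was at 793 and 875 CPM in the control pool, 1620 and 1530 in clone 1, 1230 and 1270 in clone 2, a change of 0.92 ± 0.06 and 0.58 ± 0.05. When the predicted genes Gm26917 and Gm42418 were left out before scaling, 8 of these actin genes were higher and 1 was lower, and 6 integrin genes were higher and 1 lower. YAP targets were higher in 4 of 23 (17.4%, bin 16.1%), with Arhgef17 at 0.98 ± 0.08 and 0.36 ± 0.08 and Tead1 at 0.43 ± 0.07 and 0.34 ± 0.07. The call held for 2 of these 4 with chromosomes centred.

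BMP pathway and Id genes were higher in 4 of 21 (19%, bin 9.07%), namely Id1, Id2, Id3 and Bmp1, with none lower (bin 7.35%). Bmp1 is a proteinase and not a BMP ligand, and the other 3 are Id genes. No BMP receptor or SMAD gene of the list passed in both clones. Wnt genes were higher in 4 of 31 (12.9%, bin 5.14%), of which Wnt9a had the firmest rise (2.61 ± 0.31 and 1.5 ± 0.34), and 2 of 31 (6.45%, bin 6.97%) were lower. Of the cell junction list 4 of 35 (11.4%, bin 7.35%) were lower and 3 higher (8.57%, bin 9.07%). The median level of that list, 65.7 CPM, lay just under the highest bin, where 8.54% of genes were lower and 16.1% higher. The desmosomal cadherin gene Dsc2 was at 5.45 and 2.97 CPM in the control pool, 0.0699 and 0.241 in clone 1, 1.46 and 1.49 in clone 2, a change of -4.76 ± 0.52 and -1.5 ± 0.30, and Pkp1 changed by -0.75 ± 0.16 and -0.68 ± 0.16. The epithelial claudin genes Cldn3 and Cldn7 were the other lower members.

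Part of the mitosis list was higher. Its count was 14 of 52 (26.9%, bin 16.1%) higher and 2 lower (3.85%, bin 8.54%). With 2D libraries alone the count of higher genes was 7. Mki67, the proliferation antigen, was at 798 and 876 CPM in the control pool, 1190 and 1250 in clone 1, 1050 and 1220 in clone 2, a change of 0.55 ± 0.07 and 0.44 ± 0.06. Prc1 changed by 0.54 ± 0.05 and 0.41 ± 0.05, with 11.1% of its exon length under another gene, Spc25 by 0.58 ± 0.08 and 0.36 ± 0.08 and the spindle motor gene Kif11 by 0.32 ± 0.05 and 0.33 ± 0.05. DNA replication genes had 9 of 53 (17%, bin 16.1%) higher and 6 of 53 (11.3%, bin 8.54%) lower, both under 1.5 times the bin share. With chromosomes centred 3 of the 9 and 1 of the 6 kept the call. Pola1, of DNA polymerase alpha, rose by 1.04 ± 0.06 and 0.46 ± 0.06, and the ribonucleotide reductase genes Rrm1 and Rrm2 by 0.36 ± 0.06 and 0.54 ± 0.06 and by 0.37 ± 0.06 and 0.38 ± 0.06, while the licensing gene Cdc6 changed by -0.64 ± 0.07 and -0.38 ± 0.07. Among cell cycle inhibitors and D cyclins 4 of 18 (22.2%, bin 16.1%) were higher, including Cdkn2d (0.94 ± 0.15 and 0.78 ± 0.15), Cdkn2c and Rbl2. Of 53 DNA repair genes none was higher (bin 9.07%) and 4 were lower (7.55%, bin 7.35%), a share close to that of the bin.

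Proteasome and ribosomal protein genes that passed were mostly higher and ribosome biogenesis genes lower. Proteasome subunits were higher in 10 of 34 (29.4%, bin 16.1%), Psma3 by 0.44 ± 0.06 and 0.44 ± 0.06, Psmd6 by 0.46 ± 0.05 and 0.37 ± 0.05, Psmc2 by 0.44 ± 0.06 and 0.37 ± 0.06 and Psma6 by 0.36 ± 0.06 and 0.38 ± 0.06, and 4 of the 10 kept the call with chromosomes centred. Cytosolic ribosomal protein genes were higher in 16 of 71 (22.5%, bin 16.1%), Rps29 by 0.40 ± 0.05 and 0.48 ± 0.05 and Fau by 0.31 ± 0.06 and 0.36 ± 0.06, and none was lower (bin 8.54%). With chromosomes centred 3 of those 16 kept the call and the list had 4 higher (5.63%), beside 5.47% of all genes, and these genes have many processed copies. Ribosome biogenesis genes went the other way, 10 of 39 (25.6%, bin 8.54%) lower and none higher (bin 16.1%), with the polymerase I factor gene Rrn3 at -0.58 ± 0.05 and -0.30 ± 0.05 and Wdr12 at -0.28 ± 0.07 and -0.54 ± 0.07. Of these 10, 5 kept the call with chromosomes centred. Lysosomal genes were higher in 9 of 53 (17%, bin 9.07%), for instance the cholesterol carrier gene Npc2 (0.53 ± 0.06 and 0.80 ± 0.06), the sphingomyelinase gene Smpd1 (1.07 ± 0.13 and 0.71 ± 0.13) and Ids (0.83 ± 0.14 and 0.76 ± 0.14). Of the 9 lysosomal genes, 5 kept the call with chromosomes centred. Golgi and secretory genes were higher in 6 of 39 (15.4%, bin 16.1%), with Gbf1 at 0.41 ± 0.07 and 0.42 ± 0.07, and 1 of the 6 kept the call with chromosomes centred.

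Regulators of chromatin were lower in 10 of 67 (14.9%, bin 7.35%), among them Hdac5 (-0.90 ± 0.11 and -0.73 ± 0.11), and 5 of the 10 kept the call with chromosomes centred. The counts of the DNA demethylase gene Tet1 were 67 in control, 0 in clone 1 and 9 in clone 2, which makes clone 1 at least 20.5-fold lower. Apoptosis genes were lower in 6 of 36 (16.7%, bin 7.35%), including Casp1, Casp12 and the gasdermin gene Gsdmd, of inflammatory cell death. For Casp1 the counts were 34 in control, 0 in clone 1 and 3 in clone 2. Clone 1 was thus at least 10.4-fold lower, and the ratio of control to clone 2 was 12.6 (95% interval from counting error 3.98 to 64.3). Casp12 had 241 counts in control and 3 in clone 1, a ratio of 73.8 (24.9 to 360), and changed by -1.31 ± 0.21 in clone 2, where it kept 108 counts. Splicing genes were lower in 6 of 55 (10.9%, bin 8.54%), Srsf6 by -0.33 ± 0.05 and -0.28 ± 0.05, and synaptic genes in 5 of 27 (18.5%, bin 6.97%). With chromosomes centred the splicing list had 3 lower (5.45%), beside 5.13% of all genes, and none of the 5 synaptic genes kept the call. Lists that did not meet the rule in either direction included oxidative phosphorylation (8 higher and 2 lower of 74), the mitochondrial ribosome (2 and 1 of 46), the NF-kB pathway (0 and 3 of 20), the TGF-beta pathway (3 and 2 of 25), EGF and FGF ligands and receptors (2 and 1 of 29) and ERK feedback and early genes (1 and 2 of 20). The bin shares were 16.1% higher and 8.54% lower for oxidative phosphorylation, and 9.07% and 7.35% for the rest of these lists. None of 22 nuclear receptor genes was shared in either direction, where the bin shares were 5.14% higher and 6.97% lower.

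Some named members rested on few reads or on 1 library. Of 122 named genes that were shared, 20 lost the call in at least 1 clone when a 2D library was left out. Mmp13, a collagenase gene, had 11, 1 and 2 counts in control, clone 1 and clone 2, a ratio of 10.1 (1.47 to 435) and 6.14 (1.34 to 57), and 12 of 20 alternatives ended its call, with adjusted p up to 0.345 without the first clone 2 library. Pdk2 rose from 1 count to 12 and 15, and without the second control library, the first clone 1 library or the second clone 2 library the adjusted p was 0.115, 0.069 and 0.129. Lef1 rose from 2 counts to 18 and 28, with 0.129 without the second control library and 0.419 without the first clone 1 library. Vldlr had 24, 0 and 4 counts, at least 7.35-fold lower in clone 1, with 0.534 without the first control library and 0.159 without the first clone 2 library. Gstm1 fell from 26 counts to 3 in each clone, with 0.0632 without the first control library and 0.091 without the first clone 1 library. Gar1 and Gstm5 each lost the call in 17 of 20 alternatives, including any of 10 libraries left out, and Acacb in 12, with 0.892 without the second control library. Leaving out the first control library ended the calls of Il18 (0.058), Sirt5 (0.0543), Pmvk (0.0993), Ern1 (0.183), Kdm6b (0.115) and Ccnd2 (0.123). The first clone 1 library did so for Ccnd2 (0.674), Elovl1 (0.173), Dlg4 (0.141) and Rrp9 (0.0915), and the second for Slc40a1 (0.0974), Kdm6b (0.079) and Dlg4 (0.0533). The first clone 2 library did so for Mmp11 (0.081), Rps16 (0.33), Ern1 (0.176), Slc40a1 (0.121), Elovl1 (0.1) and Dlg4 (0.0618), and the second for Pmvk (0.1) and Kdm6b (0.0603). The second control library did so for Elovl1 (0.217) and Dlg4 (0.112).

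Shared calls were unevenly spread over the chromosomes. Of the 939 genes lower in both clones, 450 (47.9%) lay on chromosomes 1, 11 and 16, which held 2316 (16.8%) of the genes tested. Of the 1081 higher genes, 543 (50.2%) lay on chromosomes 5, 7, 12, 14 and 19, which held 3323 (24.1%). On chromosome 12, 112 of 484 genes (23.1%) were higher in both and the median log2 change of all its genes was 0.18 in clone 1 and 0.17 in clone 2. On chromosome 1, 161 of 780 (20.6%) were lower in both, with medians of -0.10 and -0.29, and on chromosome 11 214 of 1124 (19%), with medians of -0.38 and -0.09. On chromosome 16 it was 75 of 412 (18.2%), with medians of -0.35 and -0.11. Etv4 lies on chromosome 11, Etv1 on 12 and Etv5 on 16. Gene copy number was not analysed here. With each gene's change taken relative to the median of its chromosome, 753 genes were higher and 706 lower in both clones (5.47% and 5.13%). Of the original members 608 (56.2%) of the higher and 546 (58.1%) of the lower were called in that way too, and of the 2-fold sets 55 of 61 and 183 of 201. Named genes that lost the call with chromosomes centred, and in no other alternative, were Pkp1 (adjusted p = 0.0691), Flna (0.0843), Fh1 (0.314), Rps19 (0.0743), Sec23a (0.0973), Orc2 (0.805), Srsf1 (0.186), Upp1 (0.0546) and Nptx1 (0.0817).

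**Figure D3:**
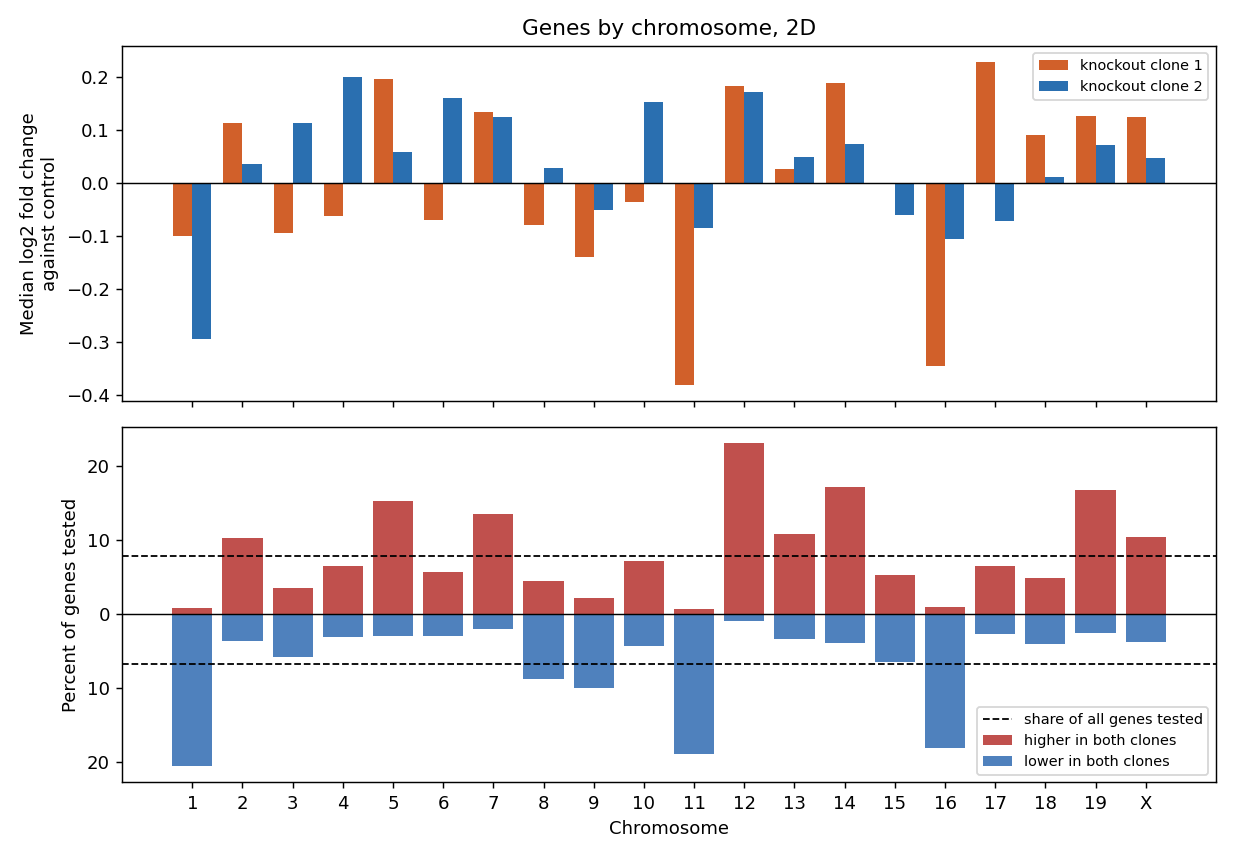
Upper panel: median log2 fold change against control of all tested genes of each chromosome in 2D, for clone 1 and clone 2. Lower panel: percent of each chromosome's tested genes that were higher (up) or lower (down) in both clones, with dashed lines at the share over all genes; chromosomes 1, 11 and 16 stand out below and chromosome 12 above.

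No difference between 3D libraries was used to choose the members, although the 3D libraries were in the fit and bore on which genes passed it. Of the 1081 genes higher in 2D, 732 (67.7%) were higher in clone 1 in 3D and 271 (25.1%) in clone 2, beside 22% and 11.9% of all genes tested. Of the 939 lower genes, 649 (69.1%) were lower in clone 1 in 3D and 431 (45.9%) in clone 2, beside 23% and 17.4%. Both clones kept the direction in 163 (15.1%) of the higher and 277 (29.5%) of the lower genes, while 2.77% of all genes tested were higher and 4.41% lower in both clones in 3D. With chromosomes centred these counts were 85 and 163, beside 1.76% and 2.86% of all genes. Without the first or second control library in 3D they were 78 and 76 for the higher and 180 and 181 for the lower genes. Leaving out the first clone 1 library in 3D gave 108 higher genes, and leaving out the first or second clone 2 library gave 88 and 82. Clone 2 also passed in the opposite direction in 3D in 137 (12.7%) of the genes that were higher in 2D and in 63 (6.71%) of the lower ones. The median change of the higher set was 0.28 in clone 1 and 0.07 in clone 2 in 3D, and that of the lower set was -0.41 and -0.23. Of the 2-fold sets, 15 of 61 (24.6%) and 86 of 201 (42.8%) kept the direction in both clones.

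Of the 12 genes that fell most under the naming rule, all but Slco4a1, Cp and C3 were lower in both clones in 3D. Slc39a4 was at 18.2 and 17.7 CPM in the control pool, 0.418 and 0.226 in clone 1, 1.01 and 1.28 in clone 2 there, a log2 change of -5.81 ± 0.28 and -3.97 ± 0.22. Podnl1 changed by -2.74 ± 0.14 and -3.01 ± 0.14 and Nipal4 by -2.30 ± 0.20 and -3.82 ± 0.24. Slco4a1 changed by 0.10 ± 0.17 in clone 1 in 3D (adjusted p = 0.67) and by -2.84 ± 0.23 in clone 2. Cp and C3 parted: in clone 2 in 3D Cp was higher than control by 0.99 ± 0.06 and C3 by 1.17 ± 0.07, whereas in clone 1 they changed by -3.95 ± 0.08 and -0.59 ± 0.07. Among the genes that rose, Npr2 changed by 1.59 ± 0.15 and 1.17 ± 0.16 and Cobl by 1.57 ± 0.11 and 0.99 ± 0.12. Id1 and Id2 were higher in clone 1 in 3D (1.06 ± 0.09 and 0.80 ± 0.07) and lower in clone 2 (-0.43 ± 0.10 and -0.91 ± 0.08). Among the 122 named genes shared in 2D, the difference of the clones' mean from control itself differed between the formats in 60, beside 8.01% of all genes (2.83% with a difference above 0 and 5.18% below 0, as 3D minus 2D). The 2D values that chose these genes enter that difference, so nothing is read from the 60 against the share of all genes. Over all members the direction held in both clones in 3D for 15.1% of the higher and 29.5% of the lower genes. By list, 4 of the 8 lower MHC class I genes, 4 of the 10 of the ATF4 list and 7 of the 8 of the nucleotide list were lower in both clones in 3D too. So was 1 of the 10 lower ribosome biogenesis genes, and none of the 8 fatty acid or 6 ER folding genes. None of the 10 proteasome, 14 mitosis or 16 ribosomal protein genes that rose in 2D was higher in both clones in 3D, and of the 14 hypoxia and glycolysis genes 1 was. Some members of these whole lists were lower in both clones in 3D, beside 4.41% of all genes tested. They were 8 of 34 proteasome, 6 of 52 mitosis, 7 of 71 ribosomal protein and 5 of 37 hypoxia and glycolysis genes.

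**Figure D4:**
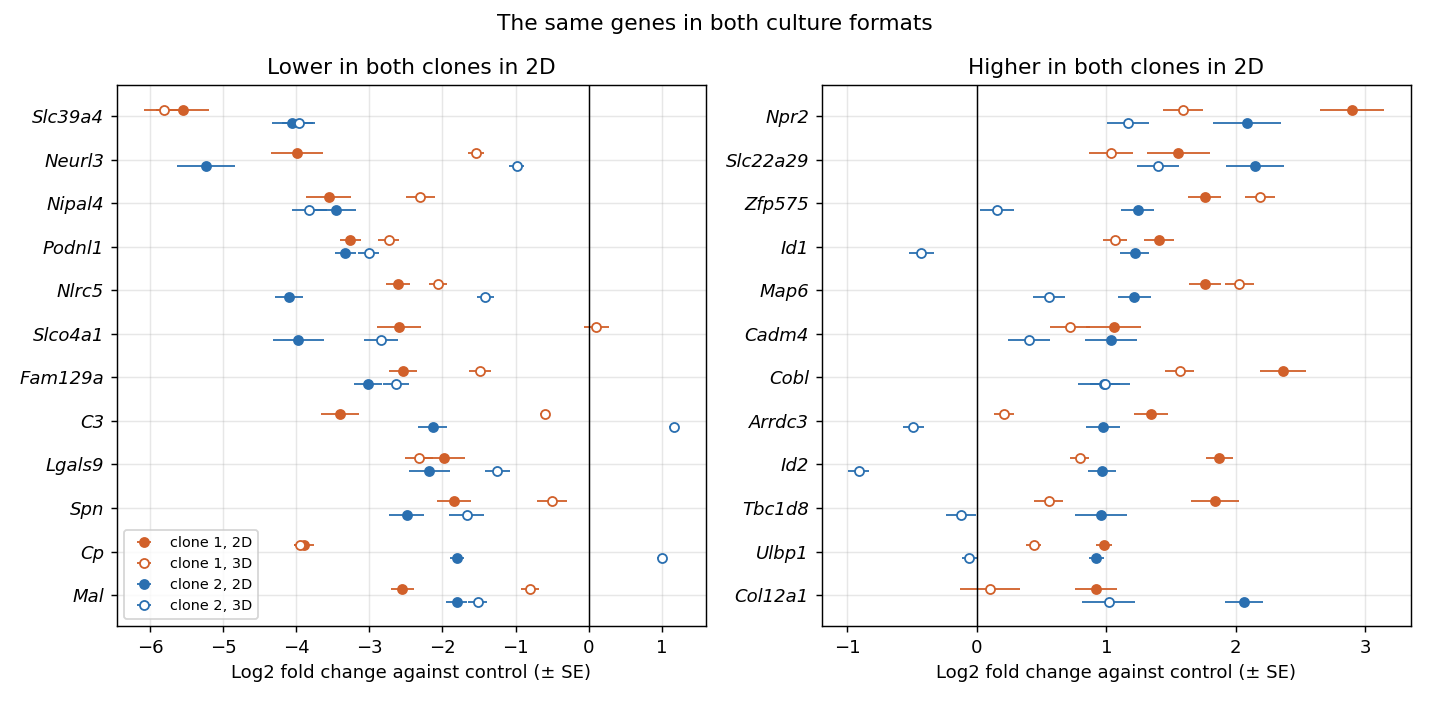
Log2 fold change against the control of the same format, with its standard error, in 2D (filled) and 3D (open). The 24 genes are those that changed most in both clones in 2D among those that met the naming rule. Slc39a4, Nipal4 and Podnl1 lie well below 0 in all 4 comparisons, whereas Id1, Id2 and Arrdc3 lie above 0 in 2D and below 0 for clone 2 in 3D.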

How the data were processed

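The samples were polyA RNA-seq libraries of 4T1 cells: 2 each of the control pool, clone 1 and clone 2, in 2D and in 3D. The authors deposited raw counts of reads per gene in 1 table for each format, and per the submitters' processing notes the tools were FastQC 0.11.9, STAR 2.7.9a, featureCounts, R 4.1.1 and Cell Ranger 3.0.0 with build mm10. The strand setting of the counting is not given in the sources used here, although the labels' protocols name a stranded kit, so overlapping genes are marked as uncertain. All 12 libraries were fitted together in edgeR 4.0.16 (R 4.3.3) with 1 mean per group, filterByExpr, TMM scaling and quasi-likelihood tests (two-sided), with p-values adjusted after Benjamini and Hochberg across all 13763 tested genes of 31017. The residual degrees of freedom were 6. CPM were scaled by TMM, except for the marker sums. Shared genes passed 0.05 in both clones in the same direction. The members, the rule and the gene lists were chosen with earlier results of these data known.

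Genes were named by rule: the 12 highest in each direction by the smaller of the clones' changes, with at least 5 CPM, no overlap between the groups' libraries, an official symbol and at most 10% of exon length under another gene, and up to 4 members of each described list. For a list, the number named was also held to 1 for every 3 shared members, rounded up, and some genes and 1 list that these rules chose are not reported here. Positions came from GENCODE M21 and promoters from RefSeq (GRCm38.p6). Promoters with an annotated exon inside the window were passed over, which the rule as first written did not ask for. On simulated counts with 200 of 13763 genes changed in both clones, the shared calls found 86 of 100 genes changed 2-fold, 59 of 100 changed 1.5-fold and 1 of 13563 unchanged genes. The simulated counts held no changes of a single clone and no shifts of whole chromosomes. They therefore do not give the rate of false shared calls in these data. Alternatives were DESeq2 1.42.0 (size factors and Wald test), a looser filter of 10 counts in total, 1 format per fit, a replicate block, scaling without Gm26917 and Gm42418, chromosomes centred, genes without overlap, an adjusted p of 0.01, at least 1.5-fold in each clone, and leaving out each library.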

Additional observations from a re-analysis of the deposited data

Results flagged for a closer look

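Of the 122 named genes that were shared in 2D, 60 had a knockout difference that itself differed between the formats, by the interaction of knockout and format in edgeR (adjusted p under 0.05), beside 8.01% of all genes tested. The value given for each gene is the log2 difference of the mean of both clones from control in 3D minus that in 2D, with 4 knockout and 2 control libraries per format. For 18 genes the value was above 0 and for 42 below 0. A gene named for a change in 2D was chosen on the values that enter this difference, so the 60, their share beside that of all genes and the number of each sign are descriptions from which nothing is read.

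Among genes lower in 2D, the value was above 0 for Neurl3 (3.35), C3 (3.05), Nlrc5 (1.62), Cp (1.37), Spn (1.08), Oas1a (1.600), Slco4a1 (1.91), Fam129a (0.72) and Mal (1.02). It was also above 0 for the proteases Mmp3 (2.62) and Mmp10 (2.08), the stress, lipid and redox genes Slc7a11 (1.12), Cebpb (0.72), Sdf2l1 (0.78), Acacb (1.54) and Mgst1 (1.91), and Etv4 (0.36) and Hdac5 (0.53). Neurl3, under 1 CPM in all 4 knockout libraries in 2D, changed in 3D by -1.54 ± 0.11 and -0.99 ± 0.11. Mmp3 was higher in clone 1 in 3D (1.66 ± 0.07) and lower in clone 2 (-0.88 ± 0.08).

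Among genes higher in 2D, the value was below 0 for Etv1 (-0.42), Npr2 (-1.11), Id1 (-0.99), Id2 (-1.48), Arrdc3 (-1.301), Tbc1d8 (-1.18), Ulbp1 (-0.76), Txnip (-1.95) and Wnt9a (-1.65). The glycolysis and mitochondrial genes were Bnip3 (-1.100), Pdk1 (-0.89), Pdk2 (-3.65), Pgk1 (-0.59), Aldoa (-0.599) and Idh2 (-0.38). The matrix and protease genes were Col12a1 (-0.93), Col27a1 (-2.598), Fbln2 (-0.41), Efemp2 (-0.42), Mmp11 (-0.68) and Htra1 (-0.46). The adhesion, actin and YAP target genes were Zyx (-0.497), Flna (-0.19) and Tead1 (-0.47). Cell division genes were Mki67 (-0.28), Prc1 (-0.31), Kif11 (-0.23), Pola1 (-0.26), Rrm1 (-0.44) and Ccnd2 (-0.67). Genes of the ribosome, proteasome, lysosome, Golgi and ferritin were Rps29 (-0.29), Fau (-0.33), Rps16 (-0.43), Psma3 (-0.27), Psmd6 (-0.304), Psmc2 (-0.43), Psma6 (-0.28), Ids (-0.61), Smpd1 (-0.71), Npc2 (-0.33), Gbf1 (-0.35) and Fth1 (-0.22). Txnip was lower than control in clone 1 in 3D (-1.0 ± 0.09) and higher in clone 2 (0.96 ± 0.08).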

How the results depend on the processing

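The 1081 genes higher and 939 lower in both clones kept within 1.5 times of these counts with DESeq2 size factors or Wald test, the looser filter and scaling without Gm26917 and Gm42418. With libraries of 1 format per fit 650 were higher and 405, not 688, differed in size between clones. An adjusted p of 0.01 gave 698 higher, 564 lower, 320 differing in size, and 66 and 159 that were also higher or lower in both clones in 3D. At least 1.5-fold in each clone gave 153, 329, 125, 15 and 91, with 1824 and 1282 calls in clones 1 and 2. Genes without overlap, a smaller set of 8179, gave 563 lower, 176 lower in both formats, and 3420 and 2990 calls. With chromosomes centred 368 differed in size, and 85 and 163 were higher or lower in both formats. Apart from that smaller set and the stricter rules, the cause of these moves was not tested. Leaving out 1 library gave 887 to 1051 higher, 774 to 927 lower, 458 to 688 differing in size, 76 to 185 higher and 180 to 281 lower in both formats, 4650 to 5731 calls in clone 1 and 3741 to 4927 in clone 2. Of 4842 values of named genes under alternatives, 4715 kept direction and call, 125 in 40 results lost the call, and with chromosomes centred Orc2 in clone 2 (0.0249) and Srsf1 in clone 1 (0.0853) changed sign.

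Replicate numbers did not pair the libraries: deviations of same-numbered libraries correlated by -0.04 to 0.02. A replicate block gave 1065 higher and 908 lower genes, 662 differing in size, 157 and 262 shared with 3D, and 5384 and 4588 calls.

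With 2 libraries per group, this depth limits what can be said of small changes and of genes at a few CPM.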
